A study of Homo sapiens with 8 samples.

Results

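The 9 genes described here, HLA-B, HLA-C, HLA-E, B2M, TAP1, TAP2, TAPBP, PSMB8 and PSMB9, encode parts of the MHC class I antigen presentation machinery and were taken by symbol from the 38148 genes of the deposited HT29 table. HT29 cells derive from a colorectal cancer and grow as an established human line. Selumetinib blocks MEK, which acts upstream of ERK. Cells were left untreated or kept in 1 μM selumetinib for 24 h, then fixed with glyoxal, stained for cyclin B1 (CCNB1, a protein that accumulates towards mitosis) and sorted before poly(A) mRNA-seq. This gave 4 groups of 2 libraries, a CCNB1-negative and a CCNB1-positive fraction from untreated cells and the same fractions from selumetinib-treated cells. All groups are 1 cell line, which is known to carry an activating BRAF mutation upstream of MEK, also in the untreated groups. The labels name no interferon treatment and no immune cells.

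Class I molecules show the T cells of the immune system a sample of the peptides made inside a cell. The proteasome cuts proteins into peptides, and in the immunoproteasome the catalytic subunits encoded by PSMB8, PSMB9 and PSMB10 replace those of the constitutive core. The TAP1 and TAP2 transporter carries peptides into the endoplasmic reticulum, where tapasin (TAPBP) holds empty class I molecules beside it, and a loaded molecule consists of a heavy chain (such as HLA-B, HLA-C or HLA-E), the light chain beta-2 microglobulin (B2M) and the peptide. The genes are known for a shared response to interferons, through interferon response elements, NF-kB sites and the SXY module in their promoters.

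The 9 genes lie on chromosome 6 apart from B2M, which lies on chromosome 15. TAP2, PSMB8, TAP1 and PSMB9 are neighbours on chromosome 6, at chr6:32821833-32859851 of GRCh38. TAP1 and PSMB9 face away from each other from RefSeq start sites 488 bases apart. A RefSeq promoter sequence (GRCh38.p14, 250 bases before to 50 after the start) was at hand for 8 of the 9 genes, all but HLA-E. A core of the interferon response element, GAAA, then any 2 bases, then GAAA, was searched on both strands (TTTC, any 2 bases, TTTC on the reverse one). These 8 genes have 10 promoters in that set, with a second start each for TAP1 and PSMB8, where the core was absent. It occurred in 5 of the 8 genes, and 3.57% of 35116 RefSeq promoters held it. The lines below give those 5 stretches because the genes are known for a shared response to interferons. Each runs 5′ to 3′ on the gene's own strand, and capitals mark the match, which in B2M, TAP1 and TAPBP consists of overlapping copies.
B2M (chr15:44711353-44711408, plus strand): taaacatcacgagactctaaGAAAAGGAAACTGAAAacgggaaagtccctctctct
TAP1 (chr6:32853803-32853858, minus strand): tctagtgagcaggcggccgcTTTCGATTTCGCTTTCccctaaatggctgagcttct
TAP2 (chr6:32838768-32838817, minus strand): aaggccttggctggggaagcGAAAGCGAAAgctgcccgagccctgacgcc
TAPBP (chr6:33314063-33314118, minus strand): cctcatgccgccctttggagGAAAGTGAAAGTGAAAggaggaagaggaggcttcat
PSMB8 (chr6:32844028-32844071, minus strand): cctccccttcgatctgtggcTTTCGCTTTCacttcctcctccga

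The match ended 129 bases before the start in B2M, 119 before it in TAP1, 49 before it in TAP2 and 5 before it in TAPBP, and in PSMB8 it lay across the start. HLA-B, HLA-C and PSMB9 did not hold this core in the window. The TAP1 match lies between the start sites of TAP1 and PSMB9, upstream of PSMB9 too but outside the window searched for it. The heavy chain genes HLA-B and HLA-C are shown next because their promoters are so alike: both hold CCAAT (in 34.61% of all promoters), TGACG, the core of a cAMP response element (24.55%), and GGGA, any 4 bases, then CC, an NF-kB core (25.59%). Capitals mark these matches on either strand, and matches that overlap run together.
HLA-B (chr6:31357221-31357366, minus strand): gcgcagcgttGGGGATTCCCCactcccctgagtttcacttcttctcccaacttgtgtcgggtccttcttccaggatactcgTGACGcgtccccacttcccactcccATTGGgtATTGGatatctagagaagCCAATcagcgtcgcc
HLA-C (chr6:31272134-31272294, minus strand): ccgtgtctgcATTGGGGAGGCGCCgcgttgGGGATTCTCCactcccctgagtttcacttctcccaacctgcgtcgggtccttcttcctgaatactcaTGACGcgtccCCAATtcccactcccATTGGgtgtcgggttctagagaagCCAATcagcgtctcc
Over the whole set, CCAAT was found in 5 genes, TGACG in 6 and the NF-kB core in 5. A match describes letters in a window, and nothing was measured at these sites.

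The libraries held 12696860 to 23916160 reads on genes, with the fewest in the selumetinib-treated CCNB1-negative libraries. Mitochondrial genes took 4.44% to 7.80% of reads in untreated libraries and 11.92% to 14.79% in treated ones, and the nuclear RNA MALAT1 took 0.30% to 0.39% and 2.01% to 4.42%. For all 8 libraries the sample title states the other treatment and the other fraction than the short description does, and the groups used here are those of the descriptions, which also name the table's columns. If the titles were right, each treatment response below would belong to the other fraction with its sign turned, and so would each fraction difference to the other treatment. The CCNB1 transcript was higher in the CCNB1-positive fraction by 2.09 ± 0.21 (log2, SE) in untreated and by 5.08 ± 0.21 in treated cells, and DUSP6, a feedback phosphatase induced by ERK, was lower in treated cells by -1.75 ± 0.20 in the CCNB1-negative and -1.06 ± 0.20 in the CCNB1-positive fraction. Under the titles, the CCNB1 transcript would instead be lower in cells sorted as CCNB1-positive, and DUSP6 higher in cells given the MEK inhibitor. The epithelial marker EPCAM had 4319 to 17828 reads and was lower in treated cells by -1.34 ± 0.18 in the CCNB1-negative and -0.83 ± 0.18 in the CCNB1-positive fraction (-0.23 and not called in the latter under quantile normalization). Of 6 epithelial markers 2 rose and 3 fell in CCNB1-negative cells, and 2 rose and 1 fell in the CCNB1-positive fraction. The keratins KRT8 (-1.22 ± 0.30) and KRT18 (-1.11 ± 0.26) fell in the first, whereas VIL1 (0.73 ± 0.15 and 0.58 ± 0.15) and CDX2 (1.06 ± 0.32 and 1.14 ± 0.32, not called under quantile normalization) rose in both, and the part of these markers in the results was not tested. The VIL1 call was lost without untreated CCNB1-positive replicate 2 (0.49), and the CDX2 calls without untreated CCNB1-negative replicate 2 (0.92), treated CCNB1-negative replicate 1 (0.70) or treated CCNB1-positive replicate 1 (0.86). Among markers of other cells there were 0 to 11 reads of PTPRC, 0 to 1 of CD3E, 4 to 55 of CD14, 3 to 25 of PECAM1 and 6 to 107 of COL1A1 per library. COL1A1, a collagen gene, was higher in treated cells by 1.81 ± 0.49 and 2.19 ± 0.49 in the CCNB1-negative and CCNB1-positive fraction, and its part in the results was not tested.

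B2M was by far the most abundant of the 9 transcripts per length. In RPM (reads scaled to the reads on genes of a library) per kilobase of the canonical transcript its mean was 418 in untreated CCNB1-negative, 371 in untreated CCNB1-positive, 203 in treated CCNB1-negative and 361 in treated CCNB1-positive cells. In untreated CCNB1-negative cells HLA-C followed at 30.8, then HLA-E (22.5), HLA-B (22.0) and TAPBP (18.7), whose neighbouring ranges overlapped, then TAP2 (5.39), PSMB8 (1.78), TAP1 (0.770) and PSMB9 (0.179). The order was other in treated CCNB1-negative cells, where TAPBP (39.5) and HLA-E (37.9) stood above HLA-C (28.5) and PSMB8 (4.66) above TAP2 (2.84). In treated CCNB1-positive cells the ranges of HLA-C (42.9), TAPBP (40.7) and HLA-E (37.3) overlapped from each to the next. PSMB9 was last and TAP1 next to last in each group.

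**Figure D1:**
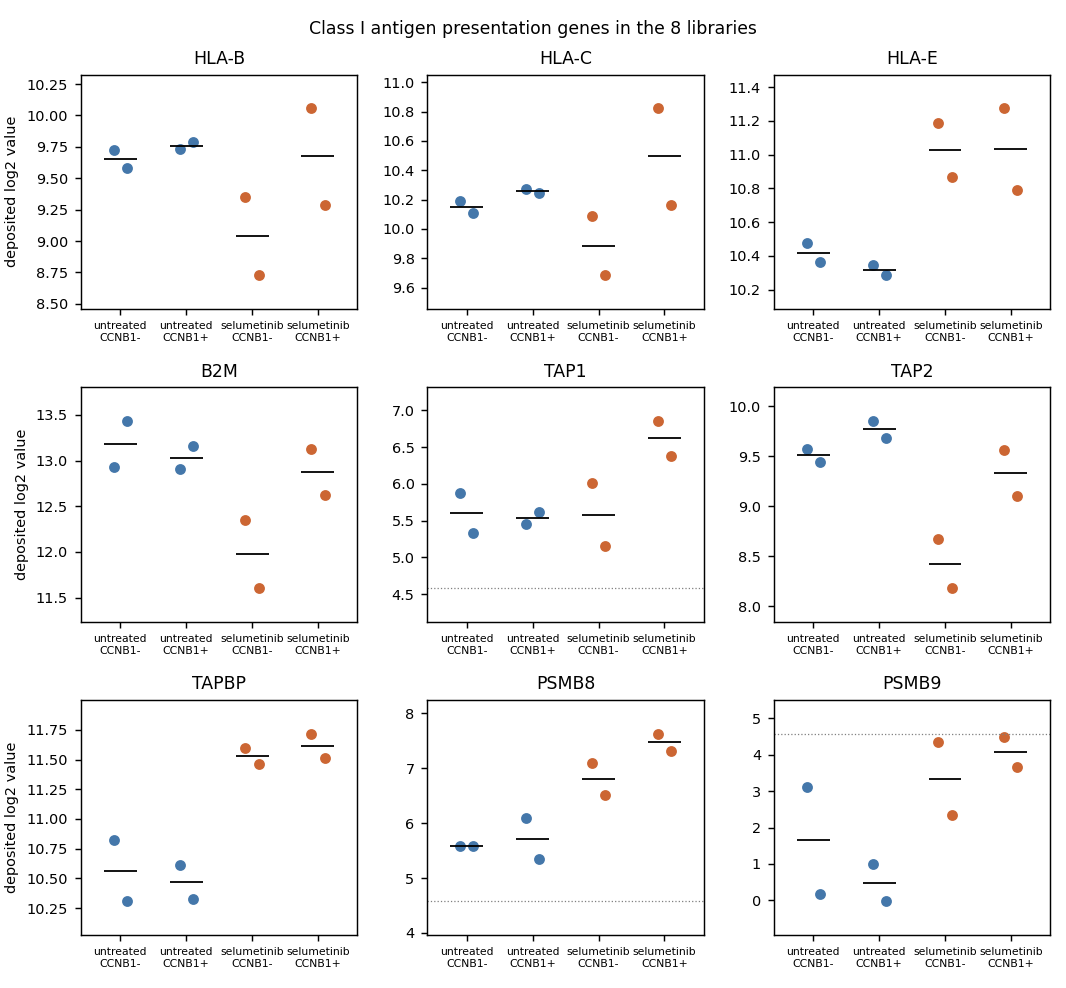
Deposited log2 value (y axis) of the 9 genes in the 8 libraries; each point is a library, blue untreated and orange selumetinib-treated, each black line the mean of 2 libraries, the dotted line in the TAP1, PSMB8 and PSMB9 panels 1 RPM (4.58), and y axes do not start at 0. HLA-E, TAPBP and PSMB8 have all 4 treated libraries above all 4 untreated ones, and B2M and TAP2 are lowest in the treated CCNB1-negative libraries.

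The first comparison asked how these genes responded to selumetinib in each fraction. They split: PSMB8, TAPBP and HLA-E rose in both fractions and TAP1 in CCNB1-positive cells, while B2M, TAP2 and HLA-B fell in CCNB1-negative cells. The deposited log2 values, which scale each library to its total reads, were tested with limma over 14219 genes whose mean reached 1 RPM, and a gene was called at a Benjamini-Hochberg adjusted p under 0.05. PSMB9 missed this filter, so 8 of the 9 genes were tested. In CCNB1-negative cells 3 were called higher and 3 lower, where 74.1% of all genes tested were called (38.2% higher and 35.8% lower). In CCNB1-positive cells 4 were called higher and 0 lower, where 65.3% of all genes were called (38.0% higher and 27.3% lower). At an unadjusted p under 0.05 limma had 5 in the latter, against 68.5% of all genes. Over the 8 genes the median log2 fold change was -0.14 in the CCNB1-negative fraction and 0.48 in the other, beside 0.05 and 0.17 over all genes tested. 3 genes were called higher in both fractions, a call that 33.3% of all genes shared, and 0 were called lower in both (26.0% of all genes); limma-voom called 1, TAP2, lower in CCNB1-positive cells and in both. These shares are close to those of the table at large, and each gene is therefore described by its own values. In a bulk library fewer cells that express a gene and less RNA of it per cell cannot be told apart. Nothing in the labels says that the 2 libraries of a group came from separate cultures, so p-values measure the spread between these libraries, which may be technical.

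**Figure D2:**
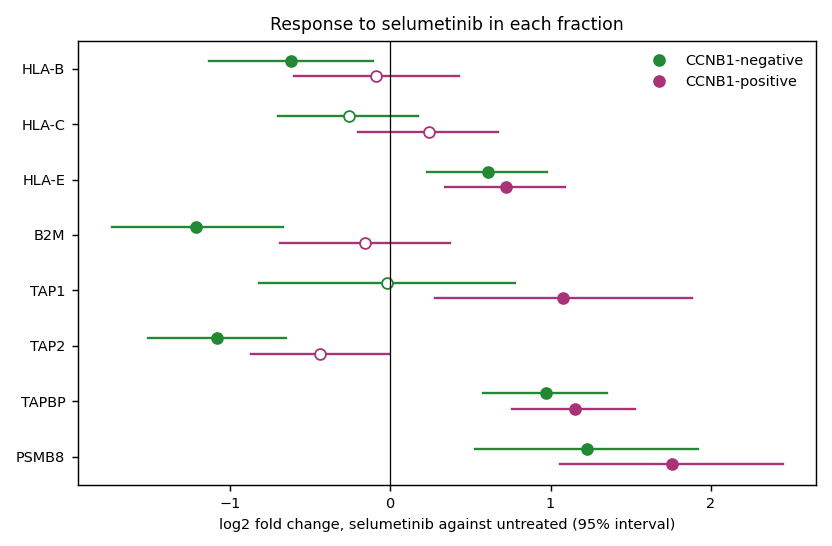
Log2 fold change of selumetinib-treated against untreated cells (x axis) with its 95% interval from limma for the 8 genes tested, green in the CCNB1-negative and purple in the CCNB1-positive fraction; filled points were called at an adjusted p under 0.05 and open ones were not. PSMB8, TAPBP and HLA-E are filled right of 0 in both fractions, and the green points of B2M, TAP2 and HLA-B are filled left of 0.

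Among the subunits that cut peptides, PSMB8, the immunoproteasome counterpart of the constitutive subunit PSMB5, had the largest rise of the 8 genes in both fractions under the authors' scaling. Its log2 values were 5.58 and 5.58 in untreated CCNB1-negative cells and 7.09 and 6.52 in treated ones. In CCNB1-positive cells they were 6.09 and 5.34 untreated and 7.63 and 7.31 treated. All 4 treated libraries lay above all 4 untreated ones, and the reads behind them were few, 37 to 68 in untreated and 54 to 176 in treated libraries. The fold change was 2.34 in the CCNB1-negative fraction (log2 1.23 ± 0.32, adjusted p = 0.0035 by limma) and 3.38 in the CCNB1-positive one (1.76 ± 0.32, adjusted p = 3.3e-04). Under quantile normalization the rise was 0.26 in the first and 0.73 in the second, and neither was called (adjusted p = 0.44 and 0.054).

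PSMB9, the counterpart of PSMB6, was near the limit of detection. It had 8 and 0 reads in untreated CCNB1-negative, 2 and 0 in untreated CCNB1-positive, 13 and 3 in treated CCNB1-negative and 20 and 8 in treated CCNB1-positive libraries. Its counts overlapped between untreated and treated CCNB1-negative cells and did not overlap in CCNB1-positive cells. Summed over 4 libraries, 10 reads in untreated cells gave 0.115 RPM (exact 95% Poisson interval 0.055 to 0.211) and 44 in treated cells 0.724 RPM (0.526 to 0.972), intervals that cover counting error only. In a fit without the filter its log2 fold change was 1.70 ± 1.06 in CCNB1-negative (adjusted p = 0.21 by limma) and 3.58 ± 1.06 in CCNB1-positive cells (adjusted p = 0.022), the second set by libraries with 2 and 0 reads.

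TAPBP, which encodes tapasin, rose about alike in both fractions and was the steadiest of the risers. Its log2 values were 10.82 and 10.31 in untreated and 11.60 and 11.47 in treated CCNB1-negative cells. They were 10.61 and 10.33 in untreated and 11.72 and 11.51 in treated CCNB1-positive cells. Every treated library was above every untreated one, on 1007 to 2992 reads. The fold changes were 1.95 (log2 0.97 ± 0.18, adjusted p = 2.4e-04 by limma) and 2.21 (1.15 ± 0.18, adjusted p = 8.9e-05), and both calls held under every alternative at 0.05 and without each library in turn.

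HLA-E, a nonclassical heavy chain that presents leader peptides and is read by natural killer cells, rose by a smaller step. Its log2 values were 10.48 and 10.36 in untreated and 11.19 and 10.87 in treated CCNB1-negative cells. They were 10.35 and 10.29 in untreated and 11.28 and 10.79 in treated CCNB1-positive cells. The treated and untreated ranges did not overlap. The fold changes were 1.52 (log2 0.61 ± 0.17, adjusted p = 0.0061 by limma) and 1.64 (0.72 ± 0.17, adjusted p = 0.0026). Without treated CCNB1-negative replicate 1 the first was 0.45 (adjusted p = 0.056), and without treated CCNB1-positive replicate 1 the second was 0.47 (adjusted p = 0.055), so both calls rest on those libraries.

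The transporter subunits went apart. TAP1 had log2 values of 5.87 and 5.33 in untreated CCNB1-negative cells and 6.01 and 5.15 in treated ones, so these groups overlapped. In CCNB1-positive cells the values were 5.46 and 5.62 untreated and 6.86 and 6.38 treated, and the groups were apart. The change was -0.02 ± 0.37 in the CCNB1-negative (adjusted p = 0.96 by limma; 95% interval -0.82 to 0.78) and 1.08 ± 0.37 in the CCNB1-positive fraction (2.11-fold, adjusted p = 0.020). Both rest on 21 to 103 reads per library and on the scaling: under quantile normalization they were -1.16 (called, adjusted p = 0.014) and -0.01, and with libraries scaled to nuclear genes excluding MALAT1 the first was 0.29. The CCNB1-positive call was lost without untreated CCNB1-positive replicate 1 (1.00, adjusted p = 0.070) and without treated CCNB1-positive replicate 1 (0.84, adjusted p = 0.15).

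TAP2, the partner subunit, had log2 values of 9.57 and 9.44 in untreated and 8.67 and 8.18 in treated CCNB1-negative cells. In CCNB1-positive cells it stood at 9.85 and 9.68 untreated and at 9.56 and 9.10 treated. All treated libraries of a fraction were below its untreated ones. The fall was 2.11-fold in CCNB1-negative cells (log2 -1.08 ± 0.20, adjusted p = 2.3e-04 by limma). In CCNB1-positive cells the change was -0.44 ± 0.20 and missed the threshold (adjusted p = 0.068), though it passed it with quantile normalization (-0.52, adjusted p = 0.041) and with limma-voom on recovered reads (-0.56, adjusted p = 0.010), and without treated CCNB1-positive replicate 1 (-0.67, adjusted p = 0.027). A same-strand gene of the deposited table, AL669918.1, covers TAP2 and carried 174 to 945 reads beside the 171 to 924 of TAP2, a ratio of 1.01 over all libraries, so reads here were given to both genes and the TAP2 value cannot be told apart from that of the longer gene.

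B2M, the light chain that all class I heavy chains here need at the cell surface, fell in CCNB1-negative cells. Its log2 values were 12.93 and 13.43 untreated and 12.35 and 11.60 treated in that fraction. In CCNB1-positive cells they were 12.91 and 13.16 untreated and 13.12 and 12.62 treated, and these overlapped. The fall was 2.31-fold (log2 -1.21 ± 0.25, adjusted p = 5.4e-04 by limma) in CCNB1-negative cells and the change was -0.16 ± 0.25 in CCNB1-positive ones (adjusted p = 0.59; 95% interval -0.69 to 0.37), where its sign turned under quantile normalization (0.32) and under scaling to nuclear genes (0.09). The first call held in each alternative, from -1.58 to -0.79.

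The classical heavy chains moved least. HLA-B had log2 values of 9.73 and 9.58 in untreated and 9.35 and 8.73 in treated CCNB1-negative cells. In CCNB1-positive cells it had 9.74 and 9.79 untreated and 10.06 and 9.29 treated, with the treated libraries on either side of the untreated ones. The change was -0.62 ± 0.24 in the CCNB1-negative (1.54-fold lower, adjusted p = 0.031 by limma) and -0.09 ± 0.24 in the CCNB1-positive fraction (adjusted p = 0.76; 0.16 with scaling to nuclear genes). The call in CCNB1-negative cells was narrow: it was lost with scaling to nuclear genes (-0.30, adjusted p = 0.27), and without treated CCNB1-negative replicate 2 (-0.31, adjusted p = 0.31), untreated CCNB1-negative replicate 1 (-0.55, adjusted p = 0.11) or untreated CCNB1-negative replicate 2 (-0.69, adjusted p = 0.050).

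HLA-C had log2 values of 10.19 and 10.11 in untreated and 10.09 and 9.68 in treated CCNB1-negative cells. It had 10.27 and 10.25 in untreated and 10.82 and 10.16 in treated CCNB1-positive cells. Neither response was called. The changes were -0.26 ± 0.20 (95% interval -0.70 to 0.17; 0.05 with scaling to nuclear genes) and 0.24 ± 0.20 (-0.20 to 0.67) by limma; the second was called without treated CCNB1-positive replicate 2 (0.57, adjusted p = 0.032) and was -0.09 without replicate 1 of that group.

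HLA-B and HLA-C share reads with other genes to a degree that was not measured. The HLA-B interval of the deposited table runs from chr6:31269491-31357188 and shares 2640 bases with HLA-C on the same strand. Of the 50-base words of HLA-B transcripts in GENCODE 44, 44.4% also occur in transcripts of another gene, 43.3% in DHFRP2 and 0.9% in HLA-C. The shares were 6.3% for HLA-C, 6.2% for HLA-E, 30.3% for TAP2, 7.9% for PSMB9, 5.2% for TAPBP, 1.0% for TAP1, and 0.0% for B2M and PSMB8. These shares do not cover genes on the opposite strand. PSMB8 shares 544 bases with PSMB9 and 602 with PSMB8-AS1, and TAP1 shares 8770 with PSMB9 and 1292 with PSMB8-AS1, all on opposite strands. Strand handling is not given in the sources used here, so reads of these partners, 0 to 20 for PSMB9 and 0 to 8 for PSMB8-AS1 per library, cannot be told apart from those of PSMB8 and TAP1 where they overlap.

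The 5 genes whose promoters hold the interferon response core went different ways in CCNB1-negative cells, where PSMB8 and TAPBP rose, B2M and TAP2 fell and TAP1 was not called. In CCNB1-positive cells PSMB8 (1.76), TAPBP (1.15) and TAP1 (1.08) were called higher by limma. B2M (-0.16) and TAP2 (-0.44) were not called there. HLA-B and HLA-C had the most alike profiles over the 8 libraries of any pair of the genes tested. Their root mean square difference was 0.182 (log2, each gene centred on its mean). HLA-E and TAPBP (0.244) and B2M and TAP2 (0.251) came next. HLA-B and HLA-C share the NF-kB, TGACG and CCAAT letters, which B2M also holds. The intervals of HLA-B and HLA-C share 2640 bases on the same strand. The part of promoter letters or of shared reads in these profiles was not tested.

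Ratios of a pair of genes within a library do not depend on how libraries are scaled, so the split was also read from them, on pairs chosen with these values known and without a test. The log2 ratio of PSMB8 to PSMB5 reads was -6.15 to -5.04 over the 4 untreated libraries and -3.27 to -2.51 over the 4 treated ones. The ratio of TAP1 to TAP2 was -4.39 to -3.70 and -3.03 to -2.66. Both pairs were thus apart by treatment in all libraries, with PSMB8 gaining on PSMB5 and TAP1 on TAP2. HLA-E to B2M went from between -3.07 and -2.46 to between -1.85 and -0.73, HLA-C to B2M from between -3.32 and -2.64 to between -2.46 and -1.92, and TAPBP to B2M from between -3.12 and -2.11 to between -1.41 and -0.14. PSMB10 to PSMB7, the constitutive subunit that PSMB10 replaces, was -2.50 to -2.10 untreated and -1.90 to -1.38 treated, and TAPBP to the loading chaperone CALR was -3.97 to -3.36 and -1.46 to -0.30. All of these pairs were likewise apart in the 8 libraries. HLA-B to B2M overlapped, at -3.85 to -3.17 untreated and -3.34 to -2.87 treated. A ratio shows unequal change of the pair and not which gene changed.

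**Figure D3:**
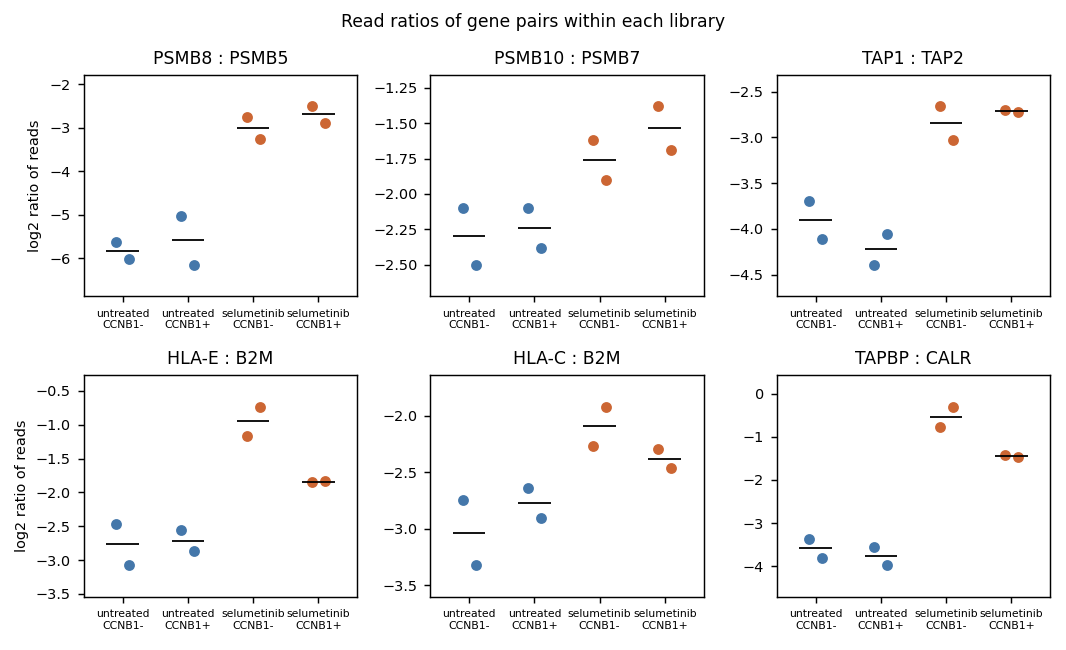
Log2 ratio of the reads of 2 genes within each library (y axis, one panel per pair) for the 4 groups; each point is a library, blue untreated and orange selumetinib-treated, each black line the mean of 2 libraries, and y axes do not start at 0. In every panel the 4 treated libraries lie above the 4 untreated ones, by the widest step for PSMB8 to PSMB5 and TAPBP to CALR.

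How these responses depended on the scaling was read from 4 settings. Scaling to nuclear genes excluding MALAT1 moved the median of all genes from 0.05 to 0.36 in the CCNB1-negative fraction and from 0.17 to 0.42 in the CCNB1-positive one, and quantile normalization moved it to -0.08 and -0.07. Quantile normalization lowered the weakly expressed PSMB8 and TAP1 most and left TAPBP, HLA-E, B2M and TAP2 with the same calls in CCNB1-negative cells.

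**Figure D4:**
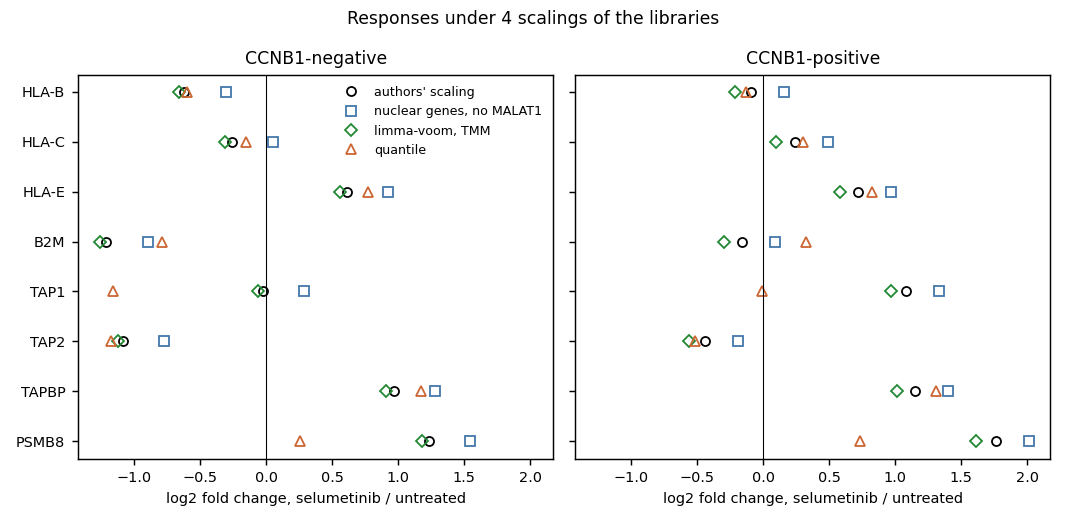
Log2 fold change of selumetinib-treated against untreated cells (x axis) for the 8 genes tested, by fraction, under the authors' scaling to total reads, scaling to nuclear genes excluding MALAT1, limma-voom with TMM factors on recovered reads, and quantile normalization. TAP1 and PSMB8 spread widest, from 1.23 to 0.26 for PSMB8 in CCNB1-negative cells between the first and the last, while TAPBP stays right of 0 in each.

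The second comparison asked whether the fractions differed. In untreated cells the CCNB1-positive and CCNB1-negative libraries were close for these genes: 0 of 8 were called by limma, 0 had an unadjusted p under 0.05 and 0 were called by limma-voom. Of all genes, 2.87% were called by limma and 13.5% had such a p. The differences ran from -0.15 ± 0.25 (B2M) to 0.26 ± 0.20 (TAP2), and the 95% interval of the first, -0.68 to 0.38, does not exclude a moderate difference.

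In treated cells 3 of 8 genes were called higher in the CCNB1-positive fraction and 0 lower, where 21.6% of all genes were called (13.8% higher and 7.87% lower); limma-voom also called 0 lower. They were TAP2 (0.90 ± 0.20, adjusted p = 0.0065 by limma), B2M (0.90 ± 0.25, adjusted p = 0.021) and HLA-C (0.61 ± 0.20, adjusted p = 0.045), a light chain, a transporter subunit and a heavy chain. TAP1 (1.04 ± 0.37, adjusted p = 0.061), HLA-B (0.64 ± 0.24, adjusted p = 0.071) and PSMB8 (0.67 ± 0.32, adjusted p = 0.15) were not called, and HLA-E (0.00 ± 0.17; -0.07 under quantile normalization) and TAPBP (0.08 ± 0.18) were nearly level. The median of the 8 differences was 0.65, beside 0.02 over all genes. Among the lists described below it was 0.54 for the constitutive proteasome core and 0.56 for other immunoproteasome and PA28 genes. It was 0.41 for peptide loading and trimming and 0.40 for epithelial markers. It was lower for other class I heavy chains (0.20), interferon receptor and JAK-STAT genes (0.02), class I regulators (0.00) and class II genes (-0.21). Of the core subunits 8 of 14 were called higher and 0 lower. The HLA-C call was the least firm: it held in 4 of 9 alternative fits (adjusted p up to 0.10 by limma), against 8 of 9 for B2M, which lost it without the filter (adjusted p = 0.074), and 9 of 9 for TAP2.

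All 3 calls were lost without treated CCNB1-negative replicate 2 (TAP2 0.66, B2M 0.52, HLA-C 0.41) and without treated CCNB1-positive replicate 1 (0.68, 0.65 and 0.28), and 5 genes were called without treated CCNB1-negative replicate 1. In both treated groups replicate 1 was higher than replicate 2 for all 9 genes, against 56.5% of all tested genes in the CCNB1-negative and 53.2% in the CCNB1-positive group. The deeper library of each treated group was therefore also the higher one for these genes, with 13987432 against 12696860 reads and 19976635 against 14109500, and the part of depth in this was not tested.

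The third comparison set the 2 responses against each other by their interaction. Although more genes passed the threshold with a fall in CCNB1-negative cells, 0 of 8 were called different between fractions by limma, 0 by limma-voom and 2 at an unadjusted p under 0.05. Of all genes 5.33% were called, 4.99% with the higher and 0.345% with the lower response in CCNB1-positive cells, and 20.1% had such a p. The largest with such a p was B2M, whose response was higher in CCNB1-positive cells by 1.05 ± 0.35 (adjusted p = 0.11), followed by TAP2 with 0.64 ± 0.28 (adjusted p = 0.22), and TAP1 had 1.10 ± 0.53 (adjusted p = 0.26). B2M was called without treated CCNB1-negative replicate 1 (1.42, adjusted p = 0.019). All 8 differences were above 0, with a median of 0.53 beside 0.11 over all genes. The median was also 0.65 for the constitutive core, 0.56 for other immunoproteasome and PA28 genes, 0.52 for peptide loading and 0.51 for epithelial markers. It was 0.24 for other class I heavy chains, 0.15 for interferon receptor and JAK-STAT genes, 0.11 for class II genes and -0.02 for class I regulators. The 95% interval of HLA-E, -0.42 to 0.64, and of TAPBP, -0.37 to 0.72, left room for a difference either way. With same-numbered fractions of a treatment as blocks, 5 of 8 were called in the interaction, beside 26.8% of all genes. The labels do not state such pairs.

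Other genes of the pathway give the setting of these changes. All 14 subunits of the constitutive 20S proteasome core fell in both fractions by limma, with a median of -1.74 for CCNB1-negative cells and -1.08 for CCNB1-positive ones, among them PSMB5 (-1.59 ± 0.17 and -1.13 ± 0.17), which PSMB8 replaces; under quantile normalization 11 of 14 were called in CCNB1-positive cells and all 14 stayed below 0. PSMB10, the remaining immunoproteasome subunit, and PSME1 and PSME2, the PA28 activator that opens the core, also fell in CCNB1-negative cells (-0.56 ± 0.16, -1.05 ± 0.18 and -1.29 ± 0.15), and 2 of these 3 fell in CCNB1-positive cells, where 0 did so under quantile normalization, with scaling to nuclear genes or without untreated CCNB1-positive replicate 2. The PSMB10 call was lost without treated CCNB1-negative replicate 2 (-0.35, adjusted p = 0.073) and with scaling to nuclear genes (-0.24). Under the authors' scaling PSMB8 was thus higher under treatment while the core it joins and its fellow subunit PSMB10 were lower or not called.

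Of 7 genes for peptide loading and trimming, 1 rose and 4 fell in CCNB1-negative cells, and 2 rose and 4 fell in the CCNB1-positive fraction. The chaperone calreticulin (CALR, -2.09 ± 0.20 and -1.18 ± 0.20), the disulphide isomerase ERp57 (PDIA3, -1.80 ± 0.17 and -1.09 ± 0.17) and calnexin (CANX, -1.35 ± 0.15 and -0.83 ± 0.15) fell, and all of them fold many other glycoproteins. TAPBPL, which encodes the tapasin relative TAPBPR, rose like TAPBP, by 1.99 ± 0.34 and 1.81 ± 0.34. The CCNB1-positive changes of CANX (-0.32) and TAPBPL (0.69) were not called under quantile normalization.

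Of 7 other class I heavy chain genes 4 were tested. HFE, a class I-like gene of iron regulation, rose by 1.56 ± 0.24 and 1.55 ± 0.24.

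**Figure D5:**
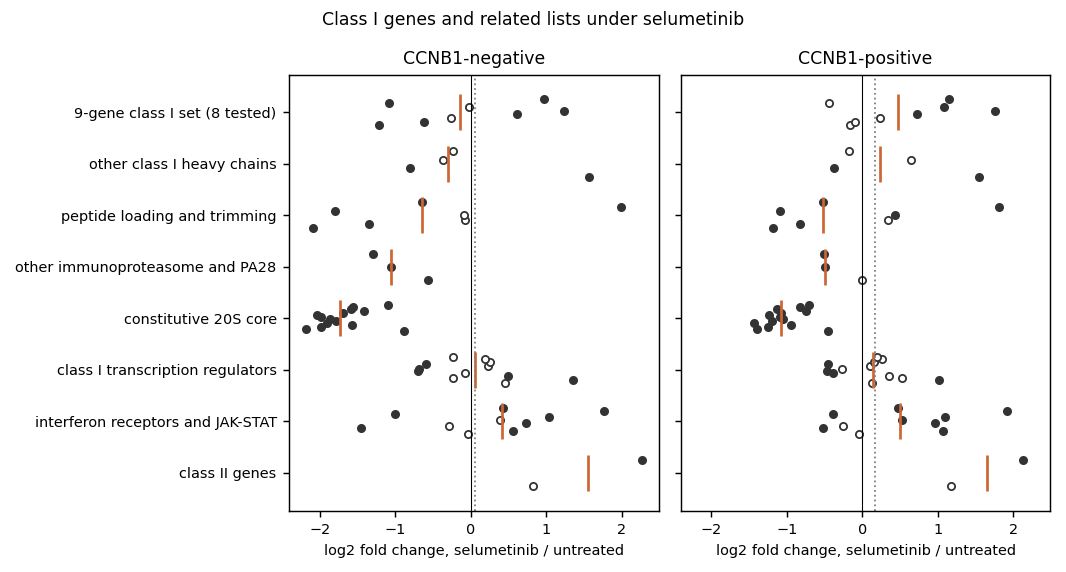
Log2 fold change of selumetinib-treated against untreated cells (x axis) in each fraction for the genes of each list that were tested (rows); filled points were called at an adjusted p under 0.05, orange bars are list medians and the dotted line is the median of all genes (0.05 and 0.17). All 14 constitutive core subunits lie left of 0 in both fractions, with medians of -1.74 and -1.08, whereas the class I set spreads to both sides.

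Among regulators of class I transcription 12 of 13 genes were tested, of which 2 rose and 3 fell in CCNB1-negative cells and 1 rose and 3 fell in the CCNB1-positive fraction; with scaling to nuclear genes 6 and 4 rose and 0 fell in either. CREB1, which binds cAMP response elements, rose by 1.35 ± 0.15 and 1.02 ± 0.15. NFYA, a subunit of the factor that binds CCAAT, fell by 0.70 ± 0.17 and 0.47 ± 0.17, and RELA, a subunit of NF-kB, by 0.59 ± 0.17 and 0.45 ± 0.17. NFYB, the partner of NFYA, fell by 0.68 ± 0.20 in CCNB1-negative cells and had -0.27 ± 0.20 in the other fraction. These calls of NFYA, RELA and NFYB were lost with scaling to nuclear genes, where the changes were -0.38 and -0.22, -0.27 and -0.20, and -0.37 for NFYB in CCNB1-negative cells. In CCNB1-negative cells the RELA call was also lost without treated CCNB1-negative replicate 2 (-0.33) and the NFYB call without replicate 2 of the untreated (-0.46) or the treated group (-0.41). In CCNB1-positive cells the NFYA call was lost without untreated replicate 1 (-0.44), untreated replicate 2 (-0.50) or treated replicate 2 (-0.31), and the RELA call without any 1 of the 4 libraries of that fraction (-0.49 to -0.40). Of 12 interferon receptor and JAK-STAT genes 10 were tested, of which 5 rose and 2 fell in CCNB1-negative cells and 6 rose and 2 fell in the CCNB1-positive fraction, where 3 rose and 1 fell under quantile normalization. STAT2, a subunit of the complex that binds interferon response elements, rose by 1.76 ± 0.16 and 1.92 ± 0.16, and JAK2, a kinase of the interferon gamma receptor, by 1.03 ± 0.23 and 1.09 ± 0.23 (0.29 and not called in CCNB1-positive cells under quantile normalization). The receptor subunit IFNGR1 changed by -1.46 ± 0.18 in CCNB1-negative and by -0.52 ± 0.18 in CCNB1-positive cells and was called lower in both. With scaling to nuclear genes 0 genes of this list were called lower in CCNB1-positive cells.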

How the data were processed

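mRNA-seq of 8 libraries of sorted HT29 cells was analysed. For trimming the authors used Trim Galore 0.5.0, for mapping to GRCh38 HISAT2 2.1.0, and for quantitation SeqMonk 1.47.0. The deposited values are log2 reads scaled to the total of the largest library, and a gene with no read stands at the value of 0.9 reads. Annotation release and strand handling are not given in the sources used here. All 8 value columns were used and 0 were not. Whole reads were recovered for 100% of genes of up to 1000 reads in each library, within 0.01 reads. Identifiers matched GENCODE 44 for 99.3% of genes, and 99.9% of these overlapped. Replicates differed beyond sampling noise, with a chi-square per gene of 15.56 to 30.18, and were kept apart. Labels name RPMI-1640 as the medium and the study's methods another.

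Groups follow the sample descriptions. The genes, the related lists and the alternatives were chosen with earlier results of these data known. The text names all 9 genes, those list genes on which a description turns, and the 5 other tested genes whose centred log2 profile had the smallest root mean square difference from the mean profile of the 8 tested class I genes. The values of some list genes are not reported here. The limma 3.58.1 fit (R 4.3.3, mean-variance trend, 1 coefficient per group) took the deposited log2 values of the 14219 genes whose mean reached 1 RPM, and the Benjamini-Hochberg adjustment ran over all of them. The study's methods used DESeq2, a count model, which was not run; limma-voom on the recovered reads was the count-based alternative. The fit was tested on simulated data. Alternatives were limma-voom on the recovered reads with TMM factors, quantile normalization, scaling to nuclear genes excluding MALAT1, no filter, a filter of 10 RPM, a pseudocount of 0.1 RPM, blocks, the compared groups only, an adjusted p under 0.01, and leaving out each library. Reads carry no molecular identifiers, so intervals cover counting error only. Python 3.11.15 with pandas 2.3.3, numpy 2.4.6, scipy 1.17.1 and matplotlib 3.10.9 did the rest.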

Additional observations from a re-analysis of the deposited data

Results flagged for a closer look

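The difference between the fractions' responses to selumetinib, tested by the interaction term of limma, passed the adjusted threshold for the interferon gamma receptor gene IFNGR1, whose response was higher in CCNB1-positive cells by 0.93 ± 0.25 (adjusted p = 0.046). That call was lost with limma-voom (0.84, adjusted p = 0.065) and with scaling to nuclear genes (0.87, adjusted p = 0.069), and with most libraries left out in turn, down to 0.72 (adjusted p = 0.17) without treated CCNB1-negative replicate 2. The interaction also passed for the sort marker CCNB1 (2.99 ± 0.30, adjusted p = 1.8e-05) and for CDK1, its kinase partner (3.14 ± 0.34, adjusted p = 3.9e-05), both of which fell further in the CCNB1-negative fraction. By limma 0 of the 8 class I genes tested passed this threshold, 2 had an unadjusted p under 0.05, and 0 passed with limma-voom. With a block of same-numbered fraction pairs, which the labels do not state, 5 passed, beside 26.8% of all genes.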

How the results depend on the processing

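The count of class I genes called in CCNB1-negative cells (6) was 5 to 6 and that in CCNB1-positive cells (4) 3 to 5 when each library was left out; the second was 2 with a filter of 10 RPM, which leaves out PSMB8 and TAP1. The count between treated fractions (3) was 1 with no filter or an adjusted p under 0.01, and 0 to 5 over the libraries left out; the interaction count (0) was 0 to 1. Labels give replicate numbers but no shared origin. Deviations of same-numbered libraries correlated at 0.35 between untreated and 0.43 between treated fractions and at -0.09 to 0.08 otherwise, a hint from the data that fractions of a number share a source; with 2 such pairs per treatment, numbers were not taken to pair samples. With the replicate block 5 of 8 genes were called between treated fractions, beside 26.3% of all genes. With a block of fraction pairs 6 were, beside 47.8%, and 5 in the interaction, beside 26.8% of all genes.

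Values that changed sign, none of them called after the change, were as follows. With scaling to nuclear genes the response in CCNB1-positive cells was 0.16 for HLA-B, 0.09 for B2M and 0.25 for PSMB10, that in CCNB1-negative cells 0.05 for HLA-C and 0.29 for TAP1, and the treated fractions differed by -0.07 for HLA-E. With quantile normalization the response in CCNB1-positive cells was 0.32 for B2M, -0.01 for TAP1 and 0.07 for PSMB10, and the fractions differed by -0.07 for HLA-E when treated and 0.14 for TAP1 when untreated. With a pseudocount of 0.1 RPM the values were 0.02 for HLA-B and 0.10 for PSMB10 in CCNB1-positive cells, 0.11 for TAP1 in CCNB1-negative cells and -0.04 for HLA-E between treated fractions, where limma-voom also gave -0.04. Without 1 library at a time, the response in CCNB1-positive cells ran from -0.47 to 0.30 for HLA-B, -0.09 to 0.57 for HLA-C, -0.41 to 0.09 for B2M and -0.13 to 0.12 for PSMB10, and that in CCNB1-negative cells from -0.45 to 0.41 for TAP1. The difference between untreated fractions then ran from -0.40 to 0.10 for B2M, -0.33 to 0.21 for TAP1, -0.35 to 0.16 for TAPBP and -0.24 to 0.51 for PSMB8, that between treated fractions from -0.24 to 0.25 for HLA-E and -0.02 to 0.19 for TAPBP, and the interaction from -0.14 to 0.35 for HLA-E and -0.08 to 0.44 for TAPBP. The cause was not tested.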

Other observations

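NLRC5, the transactivator of class I genes, lay below the filter of 1 RPM. It had 5, 4, 8 and 5 reads in the untreated and 15, 22, 47 and 25 in the treated libraries, and every treated library was higher in RPM, from 1.07 to 2.35 against 0.209 to 0.335. In the fit without a filter its log2 fold change was 2.50 ± 0.66 in CCNB1-negative (adjusted p = 0.0094 by limma) and 2.79 ± 0.66 in CCNB1-positive cells (adjusted p = 0.0066). MR1, a class I-like gene that presents vitamin B metabolites, had 2 to 11 reads in untreated and 29 to 37 in treated libraries, with changes of 2.65 ± 0.71 (adjusted p = 0.011) and 3.98 ± 0.71 (adjusted p = 0.0012) in that fit. These genes were picked out after their values were seen.

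Of 12 class II genes 2 were tested. HLA-DMA, which edits the peptides of class II molecules, rose by 2.27 ± 0.27 and 2.13 ± 0.27 in CCNB1-negative and CCNB1-positive cells (adjusted p = 4.4e-06 and 1.6e-05 by limma). The class II transactivator CIITA had 0 to 10 reads and the class II chain HLA-DRA 0 reads in each library, where up to 3 reads would be allowed by a count of 0.

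The genes whose profile over the 8 libraries was most like the mean of the 8 tested class I genes were WNT7B, RAB11FIP5, ECH1, CTSD and CCDC82, with a root mean square difference of 0.096 to 0.111 (log2, centred). That mean ran from -0.44 in treated CCNB1-negative replicate 2 to 0.67 in treated CCNB1-positive replicate 1.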
